A study of Mus musculus with 16 samples.

Results

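The genes described here are 9 markers of T and B lymphocytes, chosen by name, of 15632 genes tested in brown adipose tissue (BAT). They are *Cd3d*, *Cd3e*, *Cd3g*, *Cd4* and *Cd8a* of T cells, *Cd79a*, *Cd79b* and *Ms4a1* of B cells, and *Ptprc*, which encodes CD45, a phosphatase on the surface of all leukocytes. RNA was sequenced from BAT of 16 mice, with 4 mice in each of 4 groups, and each library comes from 1 mouse. OPA1 BKO mice carry floxed *Opa1* alleles together with a transgene that expresses Cre under the *Ucp1* promoter, so that OPA1, a fusion protein of the inner mitochondrial membrane, is deleted in thermogenic adipocytes and not in lymphocytes by design. The WT mice are littermates with the same floxed alleles and without Cre. All mice were 7 weeks old, on a C57Bl/6J background, fed chow and housed at room temperature. The comparison asks whether the loss of OPA1 in thermogenic adipocytes was accompanied by a difference in lymphocyte transcripts of the tissue, in females and in males.

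T cells recognise peptides through a receptor whose alpha and beta chains have no signalling tail of their own. Signals pass through the CD3 chains (gamma, delta and epsilon, encoded by *Cd3g*, *Cd3d* and *Cd3e*) and the zeta chain (*Cd247*), while the coreceptors CD4 and CD8 bind MHC class II and class I molecules. B cells carry membrane immunoglobulin, which signals through the heterodimer of CD79A and CD79B, and MS4A1 (CD20) is a surface protein of mature B cells. BAT holds resident macrophages and smaller numbers of lymphocytes among its adipocytes and endothelial cells. In bulk tissue, fewer cells of a type and less RNA per cell cannot be told apart.

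The libraries held between 13607283 and 23114534 estimated counts. In all 8 libraries of each genotype the label was in accord with the targeted gene, since *Opa1* averaged 184 ± 18.3 CPM (SD, n = 8) across the WT libraries against 26.1 ± 7.32 CPM (SD, n = 8) after deletion, without overlap. *Ucp1*, the defining gene of brown fat, had means of 4758 (WT) and 3436 CPM (OPA1 BKO). Levels are given as CPM, a count set relative to the library total after scaling by the TMM method, unless TPM is named, which also divides by transcript length. Mitochondrially encoded transcripts took 23.3% to 30.5% of the counts in WT and 4.44% to 9.02% in OPA1 BKO libraries, and the TMM factors, at 0.746 to 0.880 and 1.18 to 1.27, differed accordingly. The choice of scaling therefore bears on every change reported here. Without TMM the median change of all genes moved from 0.01 to 0.57 on the log2 scale, and on the TPM scale it moved to 0.81.

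The lymphocyte genes were rare transcripts. The 8 genes other than *Ptprc* had between 0 and 56.4 estimated counts in a library, with a median of 13, and all 9 passed the filter on low counts. On the TPM scale, which allows genes to be compared, the mean level in WT mice was 1.24 ± 0.224 (SD, n = 8) for *Ptprc* and 1.10 ± 0.45 (SD, n = 8) for *Cd79a*. *Cd79b*, *Cd3d* and *Cd3g* followed with means of 0.898, 0.813 and 0.758 TPM, then *Cd4* with 0.547, *Cd3e* with 0.382, *Cd8a* with 0.262 and *Ms4a1* with 0.171 TPM. *Ptprc* stood at the 26.4th percentile of all genes tested and *Ms4a1* at the 4.20th. None of the neighbours in this order was apart in WT mice, because the ranges over 8 libraries overlapped in each of the 8 pairs. In OPA1 BKO mice the order of the means was led by *Ptprc* at 4.67 ± 0.802 TPM (SD, n = 8), and here every library lay above the range of the next gene, *Cd3d* at 1.29 ± 0.509 TPM (SD, n = 8).

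**Figure D1:**
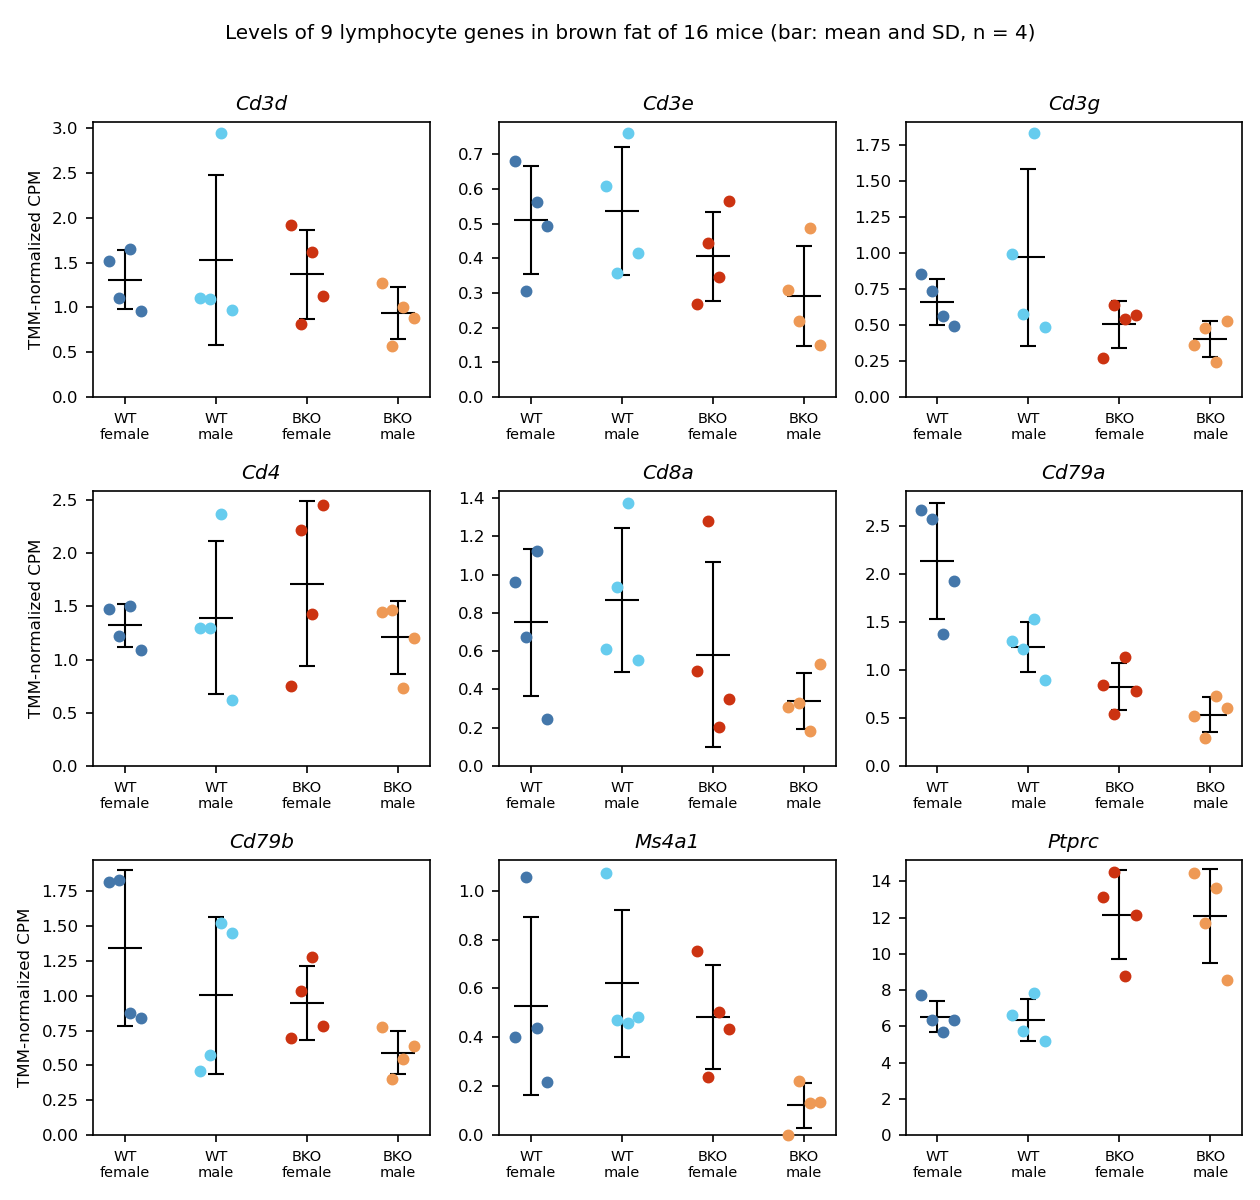
TMM-normalized CPM of the 9 genes (vertical axes, from 0) in the 4 groups; each point is 1 mouse and the bars give mean and SD of 4 mice. *Ptprc* lies higher in every OPA1 BKO mouse than in every WT mouse, *Cd79a* lies lower in OPA1 BKO mice within each sex, and the other genes overlap between genotypes.

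A pair of libraries stood apart before any comparison of genotypes. Library S01, a WT female, held 260 estimated counts of *Ighg2b*, the constant region of IgG2b, where the other 15 libraries held 0 to 12. It also held 246 counts of the kappa constant region *Igkc* against 7 to 40 elsewhere, and 53.0 counts of *Jchain*, which joins secreted immunoglobulins, against 3 to 14. Among the variable regions, *Igkv4-57* had 40 counts in S01 and at most 1 elsewhere, and *Ighv1-66* had 21 counts in S01 and 0 in the others, both chosen for mention after their values were seen. Of the 91 counts of immunoglobulin variable regions in S01, *Igkv4-57* held 44.0%. *Glycam1*, a glycoprotein of the high endothelial venules of lymph nodes, had 83 counts in S01 and was at 0 in the other 15 libraries, which allows up to 3 counts in each. The lymph node marker *Chst4* was at 0 in all libraries. The membrane immunoglobulin *Ighm* did not single out S01, which had 212 counts in a range of 82 to 285. Library S11, a WT male, was the highest of its group in 8 of the 9 genes, *Ms4a1* excepted. For *Cd3g*, *Cd3d*, *Cd79a* and some of the marker lists, results are also given below without these libraries, a choice made after seeing the data. The ratios were recomputed only with single libraries left out.

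**Figure D2:**
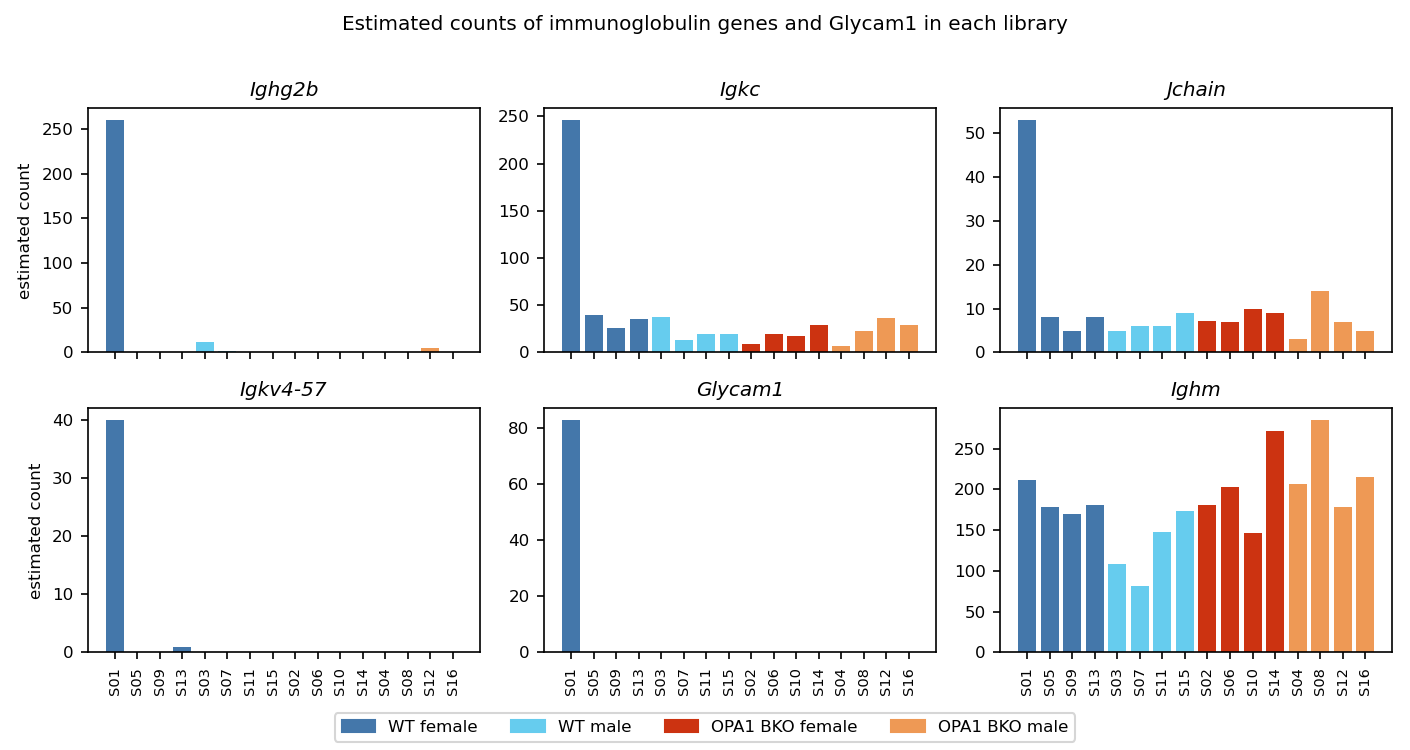
Estimated counts (vertical axes, from 0) of 5 immunoglobulin genes and *Glycam1* in each of the 16 libraries (horizontal axis), coloured by group. *Ighg2b*, *Igkc*, *Jchain*, *Igkv4-57* and *Glycam1* peak in the WT female S01, whereas *Ighm* does not.

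Between genotypes, *Ptprc* rose in OPA1 BKO mice, *Cd79a* and *Cd3g* fell, and the other 6 genes did not pass the test. Of 15632 genes, 41% passed an adjusted p-value of 0.05 in the same fit, 20.8% with higher and 20.2% with lower levels, so that 3 of 9 genes is no larger a share than that of all genes. The log2 fold change was below 0 for 7 of the 9 genes and its median over them was -0.62, where the median of all genes was 0.01. Below the median of all genes lay 7 of the 9 with library size alone and 8 of 9 on the TPM scale. Against 0 instead of that median, 6 of 9 were below with library size alone and 2 of 9 with TPM. A change of library scaling moves all genes nearly alike, so the 7 of 9 with library size alone is not a separate check on the main fit. The 0.5 added to TPM pulls the changes of rare genes toward 0, and so below a median of 0.81. The same limits hold wherever values are set against the median of all genes further on.

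Among the T cell genes, the CD3 chains are neighbours on chromosome 9 (GRCm38), within 40056 bases. *Cd3g* (ENSMUSG00000002033.14, chromosome 9 from 44969572 to 44980431) and *Cd3d* (ENSMUSG00000032094.8, 44981786 to 44987339) are read in opposite directions from starts that lie 1355 bases apart, and *Cd3e* (ENSMUSG00000032093.7, 44998740 to 45009627) lies on the strand of *Cd3g*. *Cd3g* had 0.851, 0.734, 0.562 and 0.495 CPM in WT females and 0.992, 0.575, 1.83 and 0.484 CPM in WT males. In OPA1 BKO mice it had 0.269, 0.641, 0.543 and 0.566 CPM in females and 0.362, 0.477, 0.243 and 0.526 CPM in males. The genotypes overlapped, and the WT male S11 lay well above all other libraries. *Cd3g* fell by 0.80 on the log2 scale (SE 0.30, edgeR adjusted p = 0.0448). The call rested on single libraries: when any one of S01, S02, S03, S04, S05, S08, S11, S12 and S16 was left out, the adjusted p lay between 0.0610 and 0.107 in edgeR. Without S11 the log2 fold change was -0.54, and without S01 and S11 it was -0.48 (edgeR adjusted p = 0.183). DESeq2 gave an adjusted p of 0.0506.

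*Cd3e* and *Cd3d* gave smaller differences that did not pass. *Cd3e* ranged from 0.306 to 0.763 CPM with a median of 0.529 in WT and from 0.150 to 0.566 CPM with a median of 0.328 in OPA1 BKO mice. The ranges overlapped over most of their length. Its log2 fold change was -0.60 (SE 0.28, edgeR adjusted p = 0.0992), from 4 to 13 counts per library, of which 32.5% were assigned to transcripts with a retained intron. *Cd3d* ranged from 0.962 to 2.95 CPM with a median of 1.10 in WT and from 0.574 to 1.92 CPM with a median of 1.06 in OPA1 BKO mice. Its log2 fold change of -0.29 (SE 0.28, edgeR adjusted p = 0.431) was 0.01 when S01 and S11 were left out, so it had no stable direction. The same held for it across scalings, with 0.26 for library size alone.

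The coreceptors differed from each other. *Cd4* (ENSMUSG00000023274.14, chromosome 6 from 124864692 to 124888221) ranged from 0.623 to 2.36 CPM in WT and from 0.729 to 2.46 CPM in OPA1 BKO mice, and its log2 fold change was 0.10 (SE 0.27, edgeR adjusted p = 0.789). Both genotypes covered nearly the same range. *Cd8a* (ENSMUSG00000053977.13, chromosome 6 from 71373427 to 71379173) ranged from 0.247 to 1.37 CPM with a median of 0.803 in WT and from 0.182 to 1.28 CPM with a median of 0.339 in OPA1 BKO mice. Of the OPA1 BKO libraries only S06, a female, exceeded 0.6 CPM, and the WT female S13 was the sole WT library under 0.5 CPM. The log2 fold change of *Cd8a* was -0.81 (SE 0.40, edgeR adjusted p = 0.113), and it became -1.22 without S06 (adjusted p = 0.0111) and -1.0 without S13 (adjusted p = 0.0413, both edgeR). *Cd4* is also made by some macrophages and dendritic cells. Most macrophage markers were higher in OPA1 BKO mice over both sexes, as given below. The part of these cells in the level of *Cd4* was not tested.

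Among the B cell genes, *Cd79a* showed the clearest difference. *Cd79a* (ENSMUSG00000003379.7, chromosome 7 from 24897381 to 24902197) encodes the alpha chain of the signalling dimer of the B cell receptor. It had 2.67, 2.57, 1.37 and 1.93 CPM in WT females and 0.839, 0.542, 1.13 and 0.784 CPM in OPA1 BKO females. In males it had 1.30, 1.22, 1.53 and 0.899 CPM in WT and 0.517, 0.294, 0.729 and 0.601 CPM in OPA1 BKO mice. Within each sex every OPA1 BKO mouse lay below every WT mouse, as was the case for 6.91% of all genes, and the overlap between genotypes came from WT males and OPA1 BKO females. *Cd79a* fell by 1.29 on the log2 scale (SE 0.22, edgeR adjusted p = 0.000187). It fell by 1.36 in females (SE 0.30, adjusted p = 0.00613) and by 1.22 in males (SE 0.32, adjusted p = 0.00872, both edgeR). Of all genes tested, 1.18% had a lower log2 fold change. Without S01, the library with the most *Cd79a*, it was -1.22 (edgeR adjusted p = 0.000568), and without S01 and S11 it was -1.18. Of its 31-base words, 12.2% also occur in *Gm32220*, a gene with at most 0.377 counts in any library. With library size alone the change was -0.74 (edgeR adjusted p = 0.00579). On the TPM scale the change of -0.23 had an adjusted p of 0.0946 in limma and lay 1.04 below the median of all genes.

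The partner chain *Cd79b* (ENSMUSG00000040592.11, chromosome 11 from 106311341 to 106314762) ranged from 0.458 to 1.84 CPM with a median of 1.16 in WT and from 0.404 to 1.28 CPM with a median of 0.737 in OPA1 BKO mice. In WT mice of either sex, a pair of libraries was high and another pair low, so the ranges overlapped. Its log2 fold change was -0.62 (SE 0.28, edgeR adjusted p = 0.0868) and -0.72 without the WT male S03 (edgeR adjusted p = 0.0483). *Ms4a1* (ENSMUSG00000024673.9, chromosome 19 from 11249675 to 11266241) had 0.400, 1.06, 0.437 and 0.217 CPM in WT females and 0.752, 0.236, 0.503 and 0.435 CPM in OPA1 BKO females. In males it had 1.07, 0.471, 0.458 and 0.484 CPM in WT mice and 0, 0.22, 0.130 and 0.133 CPM in OPA1 BKO mice. In females the genotypes were mixed, whereas in males every OPA1 BKO mouse was below every WT mouse, as was the case for 14.7% of all genes. The library at 0 was S04, in which up to 3 counts remain possible. Over both sexes the log2 fold change of *Ms4a1* was -1.0 (SE 0.48, edgeR adjusted p = 0.105), and without S13 it was -1.24 (edgeR adjusted p = 0.0439). *4930526L06Rik*, which overlaps *Ms4a1* on the opposite strand, had 3 to 12 counts.

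The promoters of the pair of genes that fell are shown to give the sequence in front of each. They are the RefSeq promoter windows on GRCm38.p6, in the direction of the gene and cut at the base before the GENCODE start, with capitals for the E-box CAGGTG or its reverse complement CACCTG, a motif bound by the E proteins of lymphocyte development. The *Cd79a* sequence is chr7:24897247-24897380 on the plus strand and the *Cd3g* sequence is chr9:44980432-44980681 on the minus strand.
Cd79a: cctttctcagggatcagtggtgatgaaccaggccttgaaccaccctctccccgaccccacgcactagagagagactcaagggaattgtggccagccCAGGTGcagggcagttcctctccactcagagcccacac
Cd3g: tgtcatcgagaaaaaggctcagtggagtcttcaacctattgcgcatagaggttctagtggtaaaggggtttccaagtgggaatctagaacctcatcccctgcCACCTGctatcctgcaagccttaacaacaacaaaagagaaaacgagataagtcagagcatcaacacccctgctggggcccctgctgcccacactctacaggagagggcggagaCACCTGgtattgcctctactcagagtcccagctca
Both strands were searched. The E-box occurred 1 time in the *Cd79a* window, and 9.75% of all 32851 promoter windows of that length hold it. It occurred 2 times in the *Cd3g* window, where the share of all windows is 17.2%. The letters CCCNNGGG (early B-cell factor), TGTGGT (RUNX) and CCGGAA (ETS) occurred in neither window, and none of the motifs found overlapped another.

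*Ptprc* (ENSMUSG00000026395.16, chromosome 1 from 138062861 to 138175708) moved the other way. It had 7.72, 6.36, 5.69 and 6.33 CPM in WT females and 6.64, 5.75, 7.86 and 5.19 CPM in WT males. In OPA1 BKO mice it had 13.2, 14.5, 8.78 and 12.2 CPM in females and 14.5, 11.7, 13.6 and 8.57 CPM in males. All 8 OPA1 BKO mice lay above all 8 WT mice, a separation seen in 5.07% of all genes, and in 6.7% when each sex is taken apart. *Ptprc* rose by 0.91 on the log2 scale, or 1.88-fold (SE 0.13, edgeR adjusted p = 4.91e-05), and by 0.90 in females and 0.93 in males. With any 1 library left out the log2 fold change lay between 0.86 and 0.97. It was 1.47 with library size alone and 1.57 with limma on TPM, or 0.90 and 0.76 above the median of all genes.

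*Ptprc* is spliced in a way that differs between leukocytes, since B cells keep 3 variable exons of the extracellular part that many other leukocytes skip. In the annotation these exons, of 129, 147 and 141 bases, are present together in the transcript Ptprc-207 (from 138117754 to 138122584 on chromosome 1) and absent from Ptprc-203 and Ptprc-204. The transcripts that overlap any of the 3 exons held 86.6 estimated counts summed over the 8 WT libraries and 86.7 over the 8 OPA1 BKO libraries, out of 804 and 2048 *Ptprc* counts. Their share of *Ptprc* was 0% to 31.5% in WT libraries with a median of 5.98%, and 0.446% to 12.3% in OPA1 BKO libraries with a median of 2.71%. The shares overlapped widely. Among the transcripts counted, Ptprc-210 is a single exon with a retained intron and held 38.4 counts over all libraries. The shares are therefore not those of spliced transcripts alone. The division of reads among transcripts that share most of their sequence is an estimate, which placed Ptprc-203 anywhere from 0 to 263 counts in a library, and no test was made on it.

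**Figure D3:**
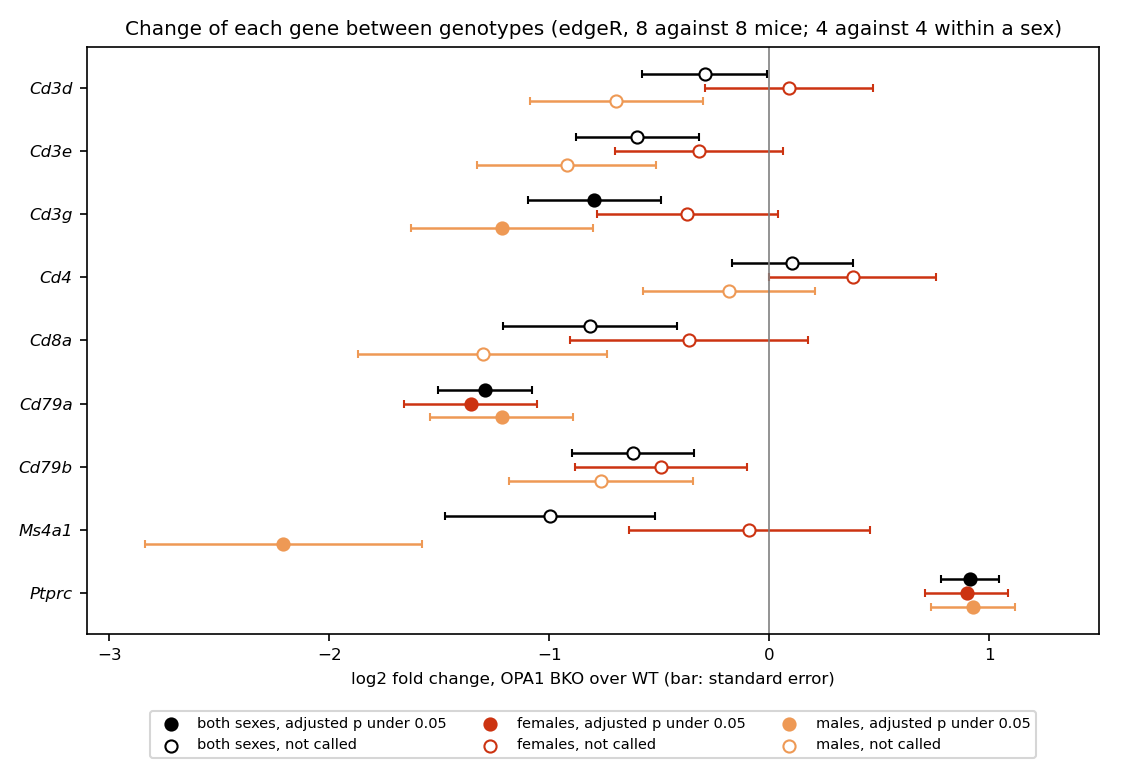
Log2 fold change of OPA1 BKO over WT mice (horizontal axis) for each of the 9 genes (vertical axis), over both sexes and within females and males, with the SE as bar; filled points passed an adjusted p-value of 0.05 in edgeR. *Ptprc* and *Cd79a* are filled in all 3 rows, *Cd3g* in both sexes together and in males, and *Ms4a1* in males.

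When the sexes were examined apart, 2 of the 9 genes passed in females (*Cd79a* and *Ptprc*) and 4 in males (*Cd79a*, *Cd3g*, *Ms4a1* and *Ptprc*), where 18% and 34.9% of all genes passed. The background was 8.96% higher and 9.03% lower in females, and 17.9% higher and 16.9% lower in males. In males *Cd3g* fell by 1.22 (SE 0.41, edgeR adjusted p = 0.0322) and *Ms4a1* fell by 2.21 on the log2 scale (SE 0.63, edgeR adjusted p = 0.0133). In females the log2 fold changes of these genes were -0.37 (edgeR adjusted p = 0.581) and -0.09 (edgeR adjusted p = 0.929). A difference in effect between the sexes passed for 0 of the 9 genes in edgeR, and for 0.115% of all genes (0.096% higher and 0.0192% lower in males). At an unadjusted p under 0.05 it held for *Ms4a1* alone. For *Ms4a1*, the difference between males and females in log2 fold change was -2.12 (SE 0.83, unadjusted p = 0.0225, edgeR adjusted p = 0.294). The log2 fold change was lower in males than in females for 7 of the 9 genes. The male calls of *Cd3g* and *Ms4a1* depended on single libraries, since *Ms4a1* had an adjusted p of 0.0548 without the WT male S03, and *Cd3g* had 0.0518 to 0.164 without any one of S03, S04, S08, S11 and S12 (edgeR). Between WT males and WT females 0 of the 9 genes passed in edgeR, against 0.23% of all genes (0.16% higher and 0.0704% lower in males). The one gene at an unadjusted p under 0.05 was *Cd79a*, with a log2 difference of -0.79 (SE 0.30, unadjusted p = 0.0187, edgeR adjusted p = 0.215).

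Ratios between a pair of the genes within a library do not depend on the scaling between libraries. The ratio of *Cd3e* to *Ptprc* counts ranged from 0.0526 to 0.104 in WT mice with a median of 0.0888, and from 0.0197 to 0.0483 in OPA1 BKO mice with a median of 0.0277. The genotypes did not overlap. The mean ratio was 2.87-fold lower in OPA1 BKO mice, a difference of -1.52 ± 0.21 (SE) in log2 (two-sided exact permutation p = 0.00016, the lowest value attainable with 8 mice against 8, adjusted over 4 ratios p = 0.00062). The ratio of *Cd79b* to *Ptprc* ranged from 0.0743 to 0.292 in WT and from 0.0360 to 0.148 in OPA1 BKO mice. It was 2.67-fold lower, by -1.42 ± 0.33 (SE) in log2 (two-sided exact permutation p = 0.00186, adjusted p = 0.00373), and 6 of 8 OPA1 BKO mice lay below all WT mice. Neither ratio says by itself which of its genes changed.

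The ratio of *Cd79b* to *Cd3e*, a B cell over a T cell gene, gave no difference that passed the test. It ranged from 0.765 to 5.55 in WT and from 1.12 to 3.89 in OPA1 BKO mice, with a difference of 0.10 ± 0.37 (SE) in log2 (two-sided exact permutation p = 0.789). The ratio of *Cd4* to *Cd8a* ranged from 1.12 to 4.09 in WT mice with a median of 1.61, and from 1.5 to 6.69 in OPA1 BKO mice with a median of 3.92. Of the OPA1 BKO mice, 7 of 8 lay above the WT median, and the WT female S13 lay among them. The ratio was 1.94-fold higher in OPA1 BKO mice, by 0.96 ± 0.36 (SE) in log2 (two-sided exact permutation p = 0.0191, adjusted p = 0.0255). Without the WT male S15 the adjusted p was 0.0524, and with TPM in place of counts the difference was 0.58 (adjusted p = 0.336, both from exact permutation tests).

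**Figure D4:**
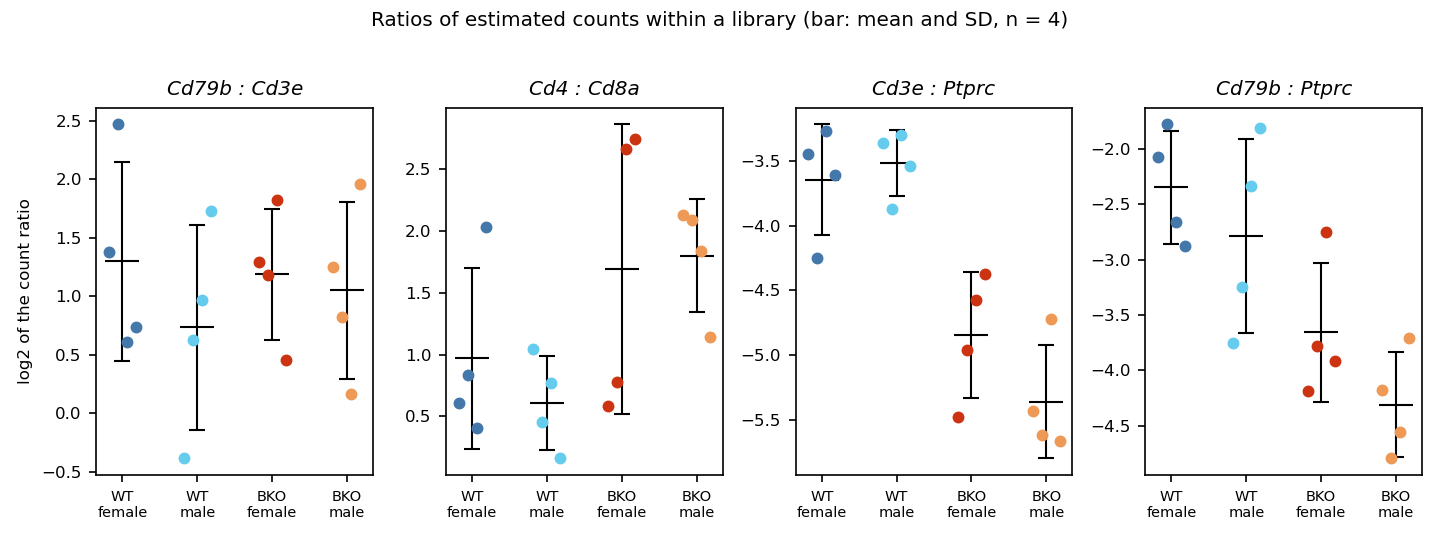
Log2 ratio of the estimated counts of a pair of genes within each library (vertical axes) in the 4 groups; each point is 1 mouse and the bars give mean and SD of 4 mice. Cd3e:Ptprc separates the genotypes without overlap, Cd79b:Ptprc nearly does, and Cd79b:Cd3e does not.

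Other genes of the T cell were read from lists written by hand. Over both sexes 20.8% of all genes rose and 20.2% fell in the main fit, which is the background for each list of this paragraph. Of 10 genes of the T cell receptor and coreceptors, 9 were tested, 0 rose and 1, *Cd3g*, fell, with a median log2 fold change of -0.51. The scaling turned this direction: with library size alone 2 genes of the list were called higher and 0 lower (median 0.042, all genes 0.57), and with limma on TPM 5 were called higher and 0 lower (median 0.39, all genes 0.81). Most of all genes were called higher under both of these scalings. Below the median of all genes lay 7, 7 and 8 of the 9 under the 3 scalings. The 4 of these that are not among the 9 genes described were *Cd247* at -0.31, *Trac* at 0.22, *Trbc1* at -0.51 and *Trbc2* at -0.65, and none passed (adjusted p of 0.0721 or more in edgeR). In males *Trbc2* fell by 1.13 (edgeR adjusted p = 0.0291). *Trbc1* and *Trbc2*, the constant regions of the receptor's beta chain, are near copies of each other, so their split is uncertain. Of 16 genes of T cell signalling and surface, 7 were tested and 1 fell: *Tcf7*, a transcription factor of naive and memory T cells, by 0.75 on the log2 scale (edgeR adjusted p = 0.00266). *Il7r*, the receptor for the survival factor IL-7, had a log2 fold change of 0.99 (edgeR adjusted p = 0.0579) and rose by 2.19 in males (edgeR adjusted p = 0.0011), and it is also made by innate lymphoid cells and some myeloid cells. *Lck*, the kinase of the receptor, was at -0.30 (edgeR adjusted p = 0.383). Among 4 tested genes of regulatory T cells, *Il2ra* fell by 0.51 (edgeR adjusted p = 0.022), and *Foxp3* was too rare to test. Among 6 tested genes of NK and cytotoxic cells, *Nkg7*, a granule protein, fell by 0.76 (edgeR adjusted p = 0.0421). The falls of *Tcf7*, *Il2ra* and *Nkg7* depended on the scaling. With library size alone 0 genes of their lists were called lower and 1 in each list was called higher. With limma on TPM 0 were called lower, and 4, 2 and 4 were called higher in the signalling, regulatory and NK lists. With S01 and S11 left out, 0 of 8 tested genes of the T cell receptor list passed and their median was -0.17.

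Of the 13 genes of the B cell surface list 9 were tested, 5 fell and 0 rose, where 20.2% of all genes fell, and all 9 were below 0 with a median log2 fold change of -1.0. Besides *Cd79a* these included *Ighd* (IgD of naive B cells) by 1.5 (adjusted p = 0.000175), *Igkc* by 1.55 (adjusted p = 0.0294) and *Fcer2a* (CD23) by 0.71 (adjusted p = 0.00277, all edgeR). In *Fcer2a* every OPA1 BKO mouse lay below every WT mouse, as for 4.89% of all genes. The fall of *Igkc* rested on S01, without which its log2 fold change was -0.83 (edgeR adjusted p = 0.0606). Without S01, 4 genes of the list fell. *Ighm*, the heavy chain of IgM and the most abundant gene of the list, had means of 10 (WT) and 9.85 CPM (OPA1 BKO) (log2 fold change -0.02, edgeR adjusted p = 0.92). With library size alone 1 gene of the list (*Ighm*) passed as higher and 2 (*Cd79a* and *Ighd*) as lower, while all 9 stayed below the median of all genes. With limma on TPM 1 gene (*Ighm*) passed as higher and 0 as lower, 5 of 9 were below 0 with a median of -0.0061, and 8 of 9 lay below the median of all genes.

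The list of B cell signalling and transcription went the other way. Of 10 genes 7 were tested, 3 rose and 0 fell, where 20.8% of all genes rose. Of the 7, 5 were above 0, with a median log2 fold change of 0.22. *Fcrla* was also called higher with library size alone, and *Fcrla* and *Vpreb3* with limma on TPM. *Btk* rose by 1.5 (adjusted p = 0.000295), *Blnk* by 1.21 (adjusted p = 0.000725) and *Cd37* by 0.48 (adjusted p = 0.0469, all edgeR). These encode a kinase, an adaptor and a tetraspanin that myeloid cells also make. Which cells made the transcripts of this list was not tested. *Bank1*, *Spib*, *Fcrla* and *Vpreb3* were tested and did not pass in the main fit. *Pax5*, *Blk* and *Pou2af1*, which are more restricted to B cells, were too rare to test. Their means were 0.432, 0.293 and 0.42 CPM across WT libraries against 0.193, 0.0895 and 0.130 CPM with OPA1 deleted. The WT library S01 held 19 counts of *Pax5* and 22 of *Pou2af1*, where the medians of the other libraries were 4 and 3. Of 10 plasma cell genes only *Sdc1* and *Derl3* were tested, with a median log2 fold change of 0.57. *Derl3* was called higher in the main fit, and 0 of the 2 were called without S01.

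Genes shared by all leukocytes, genes of MHC class II and most macrophage genes were higher. Of 12 genes of all leukocytes 11 were tested and 11 rose, *Ptprc* included, with a median of 0.91. *Itgb2*, the beta chain of leukocyte integrins, rose by 1.65, and *Lcp1*, an actin-bundling protein, rose by 1.34. All 7 genes of MHC class II presentation rose, with a median of 0.79, and 8 of 12 macrophage genes rose while *Mertk* fell. Of all genes, 20.8% rose in the same fit. In females 7 leukocyte, 2 MHC class II and 2 macrophage genes passed as higher, where 8.96% of all genes did. In males the counts were 11, 7 and 8, where 17.9% of all genes passed as higher. The summed level of the 12 macrophage genes ranged from 122 to 187 CPM in WT and from 155 to 581 CPM in OPA1 BKO mice. Over the same libraries the summed T cell receptor list ranged from 9.26 to 21.8 CPM in WT and from 8.04 to 14.6 CPM in OPA1 BKO mice, and the summed B cell surface list ranged from 12.9 to 40.4 CPM and from 14.6 to 19.3 CPM. Over both sexes, the leukocyte, MHC class II and macrophage counts of higher genes were the same without S01 and S11. What part of the *Ptprc* transcripts came from which leukocytes was not tested.

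**Figure D5:**
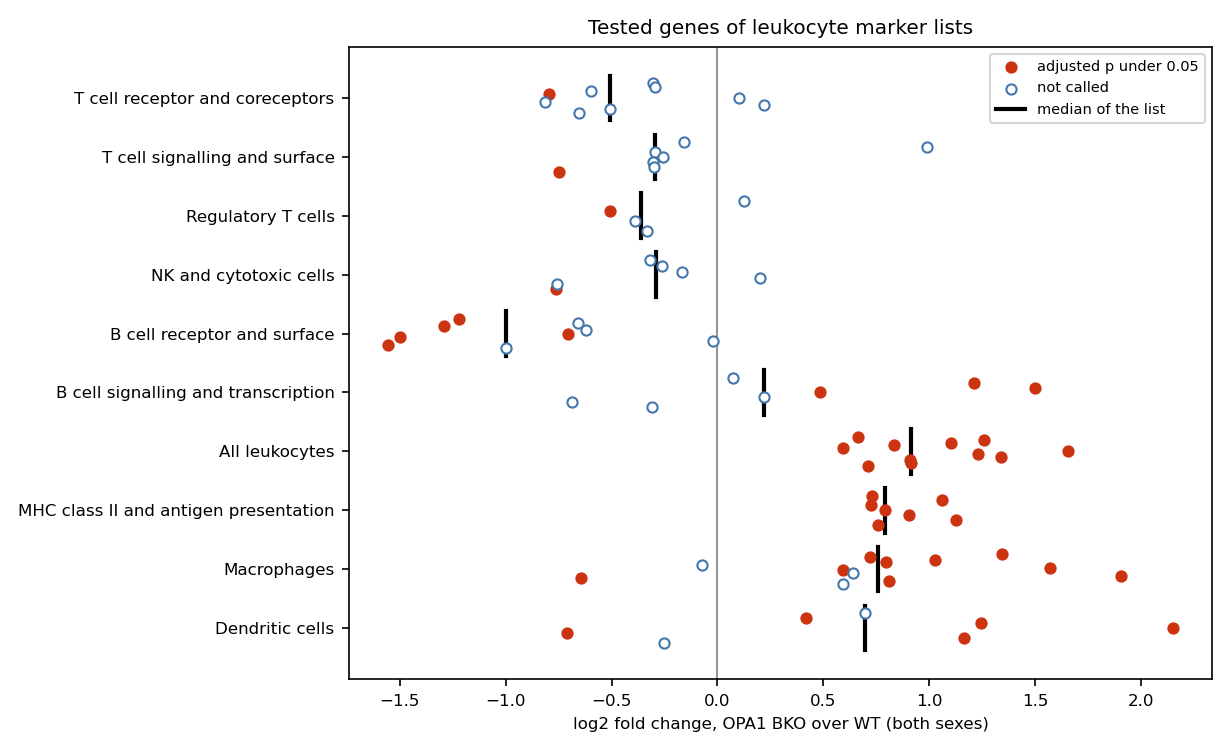
Log2 fold change of OPA1 BKO over WT mice (horizontal axis) for each tested gene of 10 marker lists (vertical axis); filled points passed an adjusted p-value of 0.05 in edgeR and the bar is the list's median. With TMM scaling the medians are -0.51 for the T cell receptor (0.042 with library size alone), -1.0 for the B cell surface, 0.91 for all leukocytes and 0.79 for MHC class II.

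The spread between mice was large for these genes. Within a group of 4 mice the coefficient of variation of CPM had a median of 33.3% over the 9 genes and 4 groups, from 13.1% for *Ptprc* in WT females to 82.6% for *Cd8a* in OPA1 BKO females. The biological coefficient of variation that edgeR assigned was 0.52 for *Ms4a1*, 0.48 for *Cd8a* and 0.19 for *Ptprc*, where the median of all genes was 0.18. The variance within groups was 1.02 times that of counting noise for *Cd3e* and 7.06 times for *Ptprc*, so that for *Cd3e* the reads themselves limit what can be seen.

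Genes of the same cell type varied together only weakly from mouse to mouse. After the mean of each group was taken off, Spearman's rho over the 16 libraries had a median of 0.21 over the 10 pairs of T cell genes, from -0.02 to 0.75 (*Cd3g* with *Cd4*). It had a median of 0.23 over the 3 pairs of B cell genes and 0.06 over the 15 pairs of a T and a B cell gene. The points share library depth and scaling, and at such counts these values are descriptions only. The genes most like *Cd3e* by the same measure, among 13600 genes of at least 1 CPM, were *5031439G07Rik* (0.89), *Arhgap30* (0.88) and *Mybbp1a* (0.87). For *Cd79b* they were *Fahd1* (0.91), *Ecsit* (0.89) and *Mrps35* (0.88), and for *Ptprc* they were *Nkain1* (0.93), *Gm48194* (0.88) and *H2-DMa* (0.87), the last a gene of MHC class II loading. As the highest of so many values over 16 libraries, these are descriptions as well, and high values can arise by chance.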

How the data were processed

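BAT RNA of 16 mice was sequenced after polyA selection and stranded library preparation. The authors ran kallisto 0.45.0 (mm10 per the labels) and deposited, for each transcript, an estimated count, which is not normalized, and a TPM value, scaled by length and library. Their transcript annotation and use of strand are not given in the sources used here. Of 135308 transcripts, 133284 matched GENCODE M21. Estimated counts were added up by gene (51060 genes), rounded, filtered (filterByExpr, minimum count 10, minimum total 15) and scaled by TMM, and edgeR 4.0.16 (R 4.3.3) was used for quasi-likelihood tests with sex as a term, a prior count of 0.125 and Benjamini-Hochberg adjustment over 15632 genes at 0.05. A model of 4 group means gave the effects within each sex. The 4 ratios, as log2 of counts plus 0.5, were compared by exact permutation over 12870 splits, with Benjamini-Hochberg adjustment. The edgeR tests were checked on simulated counts with the same dispersion for every gene and no built-in difference in scaling between genotypes. That check therefore does not bear on the choice of scaling, and the permutation tests were not checked in this way. A count of 0 allows up to 3 counts, for counting error only. As no label describes litters or pairs, p-values measure the spread between these libraries. Named are the 9 genes, genes of the lists, *Opa1*, and the 3 genes most like each of *Cd3e*, *Cd79b* and *Ptprc*. *Igkv4-57*, *Ighv1-66*, *Gm32220* and *4930526L06Rik* fall outside this rule and were named after their values were seen. Genes and lists were chosen with earlier results of these data known. Alternatives were DESeq2 1.42.0, other scalings, filters and pseudocounts, limma 3.58.1 on log2(TPM + 0.5), and libraries left out. For the B cell surface list, 1 gene is counted but not reported here.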

Additional observations from a re-analysis of the deposited data

Results flagged for a closer look

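A sample was marked when its gap to the nearest of the 4 mice of its group was large against the group's range (Dixon's 95% critical value). Of 140 such comparisons, which included the 9 genes and the summed marker lists, 10 were marked, where chance marks about 1 in 20.

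In single genes, the WT male S11 was high in *Cd3d* with 2.95 CPM, and the WT male S03 was high in *Ms4a1* with 1.07 CPM. In the summed lists, S01 was high in WT females for T cell signalling and surface (13.8 CPM) and for plasma cells (24.9 CPM), the latter through *Ighg2b* and *Jchain*. The OPA1 BKO female S14 was high for the T cell receptor and coreceptors (14.6 CPM). For the B cell receptor and surface, the OPA1 BKO male S12 was high (17.3 CPM) and the WT male S07 was low (12.9 CPM). The WT male S03 was high for plasma cells (6.25 CPM) and low for thymocytes (0.610 CPM), and the WT female S13 was low for mast cells (13.5 CPM). Their part in the results is given where leaving out the library changed a call.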

How the results depend on the processing

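Of 433 recomputed values, 390 were judged the same. For counts of genes and for the spread this meant a value close to the main one. For fold changes and ratios it meant the same direction and the same side of the threshold. *Ptprc* kept both under every alternative run, and *Cd79a* did so except with limma on TPM (-0.23, adjusted p = 0.0946) and with the filter at a mean of 1 TPM, where it was not tested. No paired analysis was possible because the library numbers are unique to a mouse and no label pairs mice across groups. The cause of the changes below was not tested.

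Genes called numbered 6412, but 11242 with library size alone and 13611 with limma on TPM, of which 10869 and 13492 were higher. With a mean of at least 1 TPM, 1 of the 9 genes passed, since few were tested. With limma on TPM the log2 fold changes were 0.44 for *Cd3d* (adjusted p = 0.0257), 0.22 for *Cd3e*, 0.11 for *Cd3g*, 0.39 for *Cd4* (adjusted p = 0.0347), 0.052 for *Cd8a* and 0.31 for *Cd79b*. With library size alone they were 0.26 for *Cd3d*, -0.25 for *Cd3g* and 0.65 for *Cd4* (adjusted p = 0.0409 in edgeR), and 2 genes passed in males in place of 4. *Cd3g* was not called by DESeq2 (-0.80), without a filter (-0.74) or with counts scaled from TPM (-0.73), and *Cd4* reversed with the last (-0.25). Without S01 and S11, *Cd3d* was 0.014 and *Cd3g* -0.48. Without S04 and S06, the libraries richest in muscle transcripts, *Cd3g* was -0.84 (adjusted p = 0.0664 in edgeR), *Cd4* -0.011 and *Cd8a* -1.19 (adjusted p = 0.0213 in edgeR). The ratio of *Cd4* to *Cd8a* was 0.58 with TPM.

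When each library was left out in turn, genes called ranged from 5876 to 6482 and the 9 genes called from 2 to 5, with 5 without the WT female S13. In males they ranged from 2 to 5, with 2 without the WT male S03, and in females they stayed at 2. The log2 fold changes ranged from -0.42 to -0.02 for *Cd3d*, -0.73 to -0.48 for *Cd3e*, -0.90 to -0.54 for *Cd3g*, -0.024 to 0.29 for *Cd4* (below 0 without S14), -1.22 to -0.65 for *Cd8a*, -1.38 to -1.20 for *Cd79a*, -0.73 to -0.51 for *Cd79b*, -1.24 to -0.77 for *Ms4a1* and 0.86 to 0.97 for *Ptprc*. The log2 ratios ranged from -0.10 to 0.31 for *Cd79b* to *Cd3e* (below 0 without S03 or S16), 0.82 to 1.14 for *Cd4* to *Cd8a*, -1.63 to -1.44 for *Cd3e* to *Ptprc* and -1.60 to -1.30 for *Cd79b* to *Ptprc*. Variance within groups was close to counting noise only for *Cd3e*, at 1.02 times, and 1.64 to 7.06 times it for the others.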

Other observations

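Genes that guide lymphocytes moved unevenly. Of 15 chemokines, cytokines and their receptors 12 were tested, 2 rose and 0 fell, with a median log2 fold change of 0.05. Of all genes 20.8% rose in the same fit. With library size alone 7 of the list were called higher (median 0.60), and with limma on TPM 11 (median 0.75). Most of all genes were called higher under these scalings as well. *Cxcl16*, a chemokine for activated T cells, rose by 0.39 (adjusted p = 0.0248 in edgeR), and *Cxcr4*, the receptor for CXCL12, rose by 0.73 (adjusted p = 0.0354 in edgeR), though not without S01 and S11, where 1 gene rose and *S1pr1* fell. *Cxcl9*, a chemokine induced by interferon gamma, had means of 37.4 (WT) and 31.2 CPM (OPA1 BKO), and it fell by 0.69 in males (adjusted p = 0.0026 in edgeR) with a value of -0.21 over both sexes (adjusted p = 0.32 in edgeR). *Il7* was too rare to test.

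Genes of other cell types measured in the same libraries gave the following values. Of all genes 20.8% rose and 20.2% fell over both sexes, and 16.9% fell in males. Of 5 erythroid genes 0 passed over both sexes and 5 fell in males, *Hbb-bs* by 1.02 on the log2 scale. The difference between the sexes in *Hbb-bs* had an adjusted p of 0.0567 (edgeR). Of 7 endothelial genes 5 fell, *Egfl7* by 0.48, where 20.2% of all genes fell, but 3 were called higher and 0 lower with library size alone and 7 higher with limma on TPM. Most of all genes were called higher under these 2 scalings. Of 7 fibroblast genes 4 rose and of 10 brown adipocyte genes 2 rose and 3 fell. The 7 skeletal muscle genes summed to 3.06 to 14714 CPM in a library without a difference between genotypes that passed. *Rag1* was at 0 in all libraries. Of 4 monocyte and neutrophil genes 1 rose (*Ccr2* by 1.55) and 0 fell. Of 7 dendritic cell genes 4 rose and 1 fell, and of 5 tested mast cell genes 1 rose (*Cpa3* by 1.93). Of 2 tested genes of gamma-delta T and innate lymphoid cells, 2 of lymph node stroma and 1 of thymocytes, none passed, with medians of 0.35, 0.40 and -0.59.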
